A study of Homo sapiens with 2 samples.

Results

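The genes described here encode 9 transcription factors. JUN, JUNB, FOS, FOSB, FOSL1, FOSL2 and ATF3 belong to AP-1 or its close relatives, and CEBPB and CEBPD belong to the C/EBP family. The members were the called HMGB2 regions within 5 kb of these genes, at gene positions fixed in hg19, the genome build of the submitters' processing notes. They comprised 4 of the 3156 regions in the deposited lists, 2 of the 364 broad and 2 of the 2792 narrow ones. Of the 9 genes, 3 had a region within 5 kb (JUNB, CEBPB and FOSL1) and 6 had none (JUN, FOS, FOSB, FOSL2, ATF3 and CEBPD).

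HMGB2, a high mobility group protein that binds and bends DNA, was mapped by chromatin immunoprecipitation and sequencing (ChIP-seq) in IMR90 cells, human lung fibroblasts. The data comprised 2 libraries, 1 from cells infected with RAS, an oncogene that drives fibroblasts into senescence, and 1 from growing control cells. Both were taken at day 2 with the same rabbit antibody against HMGB2, 10 ng of precipitated DNA went into each, and both cultures were kept in 2% oxygen. The labels do not name the RAS construct or its promoter. From these libraries the authors called regions in senescent against growing cells and deposited them as 2 lists. A higher HMGB2 signal in senescent cells is assumed here from the list names, which put senescent first, and no value in the lists checks it. The narrow regions were all 264 bp wide. The broad ones included 311 of 500 bp, the smallest width, and 53 that were wider. The lists hold positions only, so neither the depth of the libraries nor the size of any difference is known, and with 1 library per condition no value had a replicate check. Fibroblast identity could not be checked, since the lists hold no expression values.

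AP-1 is a dimer of basic leucine zipper proteins, with JUN or JUNB pairing with FOS, FOSB, FOSL1 or FOSL2, and it binds the sequence TGANTCA. RAS signalling through ERK raises the transcription of FOS and FOSL1 and stabilises their proteins, and AP-1 is known as a pioneer of the enhancers used in RAS-induced senescence. CEBPB, with NF-kB, drives transcription of the inflammatory cytokine genes that senescent cells express, and CEBPD is its inflammation-induced relative.

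The reference table of RefSeq promoters (GRCh38.p14) held 7 of the 9 genes. FOSL1 and CEBPD were not matched. The stretch before the start site of each gene touched by a broad region is shown because both called regions began past this stretch. Both began inside the gene, and the JUNB region ran on past its end. The JUNB sequence is the plus strand of chr19:12791236-12791485 in GRCh38, and its capitals mark CCAAT and the TATA box TATAAA. The CEBPB sequence is the plus strand of chr20:50190333-50190582 in GRCh38, and its capitals mark the GC box GGGCGG, on either strand.
JUNB: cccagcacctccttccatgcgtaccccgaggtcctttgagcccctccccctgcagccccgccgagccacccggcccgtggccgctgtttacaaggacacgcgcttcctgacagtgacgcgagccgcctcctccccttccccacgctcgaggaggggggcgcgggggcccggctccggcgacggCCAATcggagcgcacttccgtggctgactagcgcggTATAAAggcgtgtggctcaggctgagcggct
CEBPB: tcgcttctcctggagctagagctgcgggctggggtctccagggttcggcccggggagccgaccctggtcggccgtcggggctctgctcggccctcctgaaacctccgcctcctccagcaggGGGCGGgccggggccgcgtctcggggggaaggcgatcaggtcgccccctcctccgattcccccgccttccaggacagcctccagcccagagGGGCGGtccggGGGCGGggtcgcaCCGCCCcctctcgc

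JUNB, an AP-1 subunit that often restrains JUN and slows the cell cycle, was the only one of the 9 genes with both a broad and a narrow region within 5 kb. Its broad region ran from 12903911 to 12905019 on chromosome 19, 1108 bp in all. The JUNB gene lies at 12902310 to 12904125 and is read in the plus direction, so this region began 1601 bp after the start site. It covered the last 214 bp of the gene (11.8% of its length) and went on 894 bp past the end. At JUNB the called stretch thus lay over the 3′ end and the flank behind it. The narrow region, from 12904694 to 12904958, lay within the broad one, 569 bp past the end of the gene, so both calls were at the same place. Of the 53 broad regions over 500 bp, 21 held a narrow region. By width the broad region was number 22 of the 364, just above the median of 1048 bp of the 53 wider ones, and number 4 of the 15 broad regions of chromosome 19. It stood at place 22 of the broad list and the narrow one at place 26 of the narrow list. No source used here says what the order of the lists means. In the broad list all 53 regions over 500 bp stood in the first 76 places, so place and width there are not independent. In the GRCh38 gene order the next coding gene behind JUNB is PRDX2, a peroxiredoxin, and HOOK2 overlaps JUNB. To which of these genes the region belongs was not tested.

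CEBPB had a broad region wholly inside the gene and no narrow region nearby. The gene lies at 48807120 to 48809227 on chromosome 20 in the plus direction, and the region ran from 48808192 to 48808692. It began 1072 bp after the start site, ended 535 bp before the end of the gene and covered 23.7% of it. Like 311 of the 364 broad regions it had the smallest width of 500 bp, and it stood at place 347 of the list, near its end. The nearest narrow region lay 203.5 kb upstream. A narrow region within the broad one is not the rule at this width, since 79 of the 311 regions of 500 bp held one. CEBPB-AS1, a non-coding gene, overlaps CEBPB in the GRCh38 gene table, and the lists carry no strand.

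FOSL1, which encodes the FRA1 subunit of AP-1, had a narrow region and no broad one within 5 kb. The gene lies at 65659520 to 65667997 on chromosome 11 and is read in the minus direction. The narrow region, from 65658684 to 65658948, lay 572 to 836 bp past its end and thus 9049 bp from its start site. It stood at place 18 of the 2792 narrow regions, ahead of the one at JUNB. The coding gene next to FOSL1 on that side in the GRCh38 order is CCDC85B, and whether the region falls inside it was not analysed here. The nearest broad region to FOSL1 was 461.7 kb away.

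**Figure D1:**
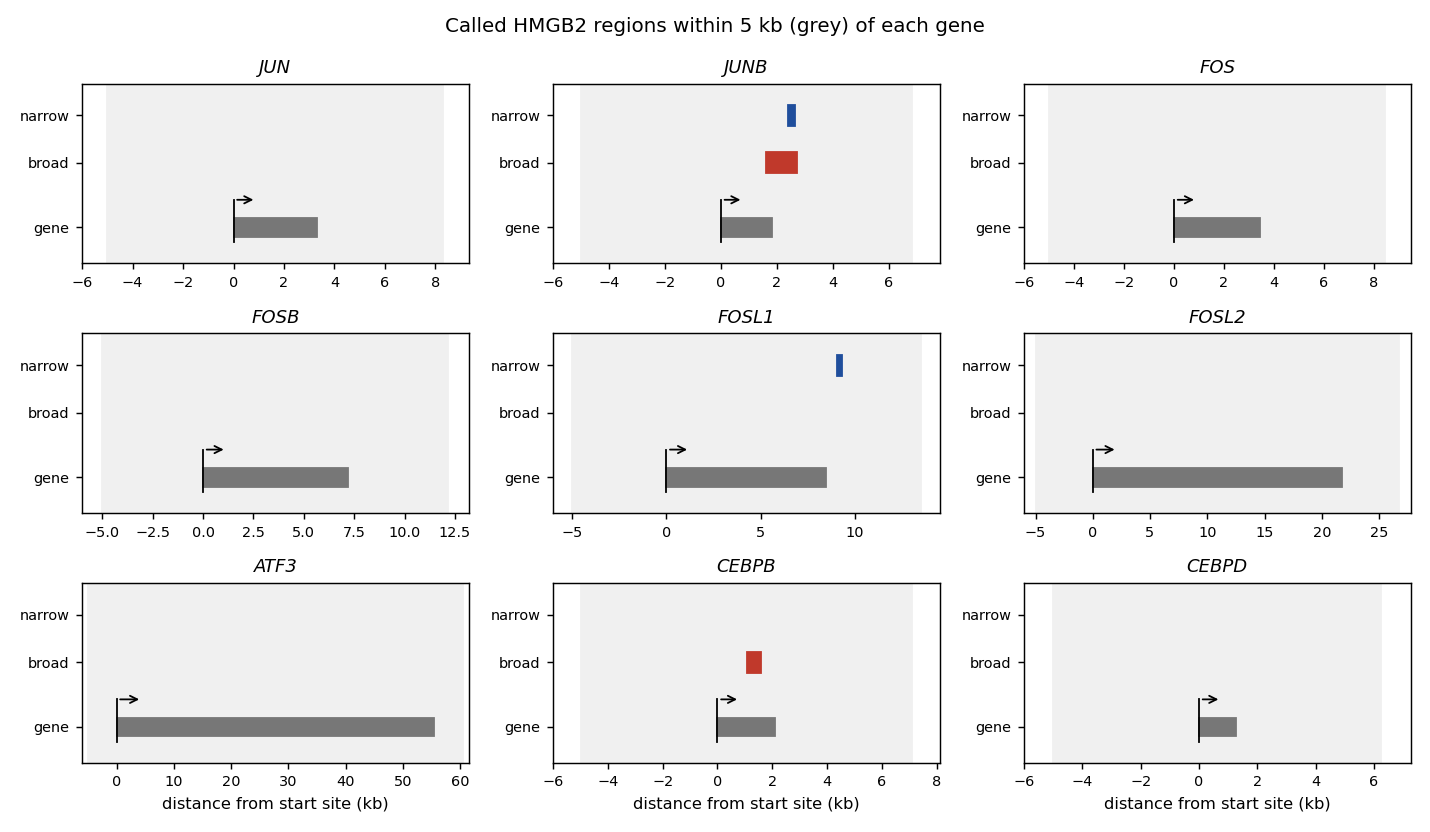
Maps of the 9 genes in the direction of transcription, with the distance from the start site in kb on the horizontal axis (a scale of its own in each panel), the gene as a dark grey bar and the 5 kb window in light grey. Red bars are broad regions and blue bars narrow regions; JUNB has both, at its 3′ end, CEBPB has a broad region inside the gene, FOSL1 has a narrow region 572 bp past its end, and the other 6 windows are empty.

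No region covered the start site of any of the 9 genes. The share over all start sites was not analysed here, so this count does not show that the regions avoid them. The 4 regions within 5 kb all began more than 1 kb from the start site in the direction of transcription, at 1072 bp for CEBPB, 1601 and 2384 bp for JUNB and 9049 bp for FOSL1. Counted from the start site in place of the whole gene, a 5 kb window kept both broad regions but only the narrow region of JUNB.

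To set these counts against the rest of the lists, windows as long as each gene with 5 kb on both sides were laid end to end along the same chromosomes. Of these windows, 0.23% held a broad region, against 2 of the 9 genes. A broad region over 500 bp was held by 0.0503% of the windows and by 1 gene, JUNB. On chromosome 19 alone, with windows of the length used for JUNB, it was held by 7 of 4973 (0.141%). For narrow regions the share was 1.62%, again against 2 of the 9 genes. The share depended on the chromosome and the length of the window. Taken for each gene on its own chromosome, it ran from 0.134% (JUN) to 0.607% (ATF3) for broad and from 1.01% (CEBPD) to 5.41% (ATF3) for narrow regions. Each gene count was above its windows, but the windows were laid without regard to genes, and a background of genes alone was not analysed here. The genes were also chosen with earlier results of these lists known, so the counts are a description.

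The other AP-1 genes had their nearest regions at larger distances. JUN, the partner that most AP-1 dimers contain, lies at 59246463 to 59249785 on chromosome 1 in the minus direction. A narrow region from 59271838 to 59272102 lay 22.1 kb upstream of its start site, at place 873, and was the only region of either list within 500 kb. The nearest broad region to JUN was 998.4 kb away on the same side, outside the 500 kb limit. It held a narrow region of place 78.

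FOS, the prototype immediate early gene, lies at 75745481 to 75748937 on chromosome 14. Its nearest broad region, from 75340251 to 75340751, was 404.7 kb upstream and held the nearest narrow region, at place 290. JDP2 and BATF, other AP-1 family genes, follow FOS on its downstream side in the GRCh38 gene order, and no region was called within 500 kb of FOS on that side.

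FOSB, a FOS relative that is also induced early, lies at 45971253 to 45978437 on chromosome 19. The nearest broad region was 628 bp wide, from 46273316 to 46273944, and lay 294.9 kb downstream of FOSB. It stood at place 70, and no other region of either list lay within 500 kb. The wide region nearest to FOSB was thus well outside the gene and its flanks.

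FOSL2, which encodes FRA2, and ATF3, a stress-induced partner of JUN, had no region of either list within 500 kb. The nearest to FOSL2, at 28615779 to 28637516 on chromosome 2, were a narrow region 1.14 Mb and a broad region 2.26 Mb away, both downstream. For ATF3, at 212738676 to 212794119 on chromosome 1, the distances were 2.83 Mb to a narrow and 3.89 Mb to a broad region. ATF3 had the longest gene of the 9 and so the widest 5 kb window, and it held no region. Most windows of that length on chromosome 1 were also empty, as 0.607% held a broad and 5.41% a narrow region. BATF3, another AP-1 family gene, lies on the downstream side of ATF3 in the GRCh38 gene order. No region was called within 500 kb of ATF3 on that side, but BATF3 itself was not placed in hg19.

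CEBPD, at 48649476 to 48650726 on chromosome 8, was the gene farthest from a broad region, at 6.60 Mb, and its nearest narrow region lay 843.7 kb away. Within the C/EBP pair, CEBPB had a broad region within 5 kb, inside the gene, and CEBPD had no region within 5 kb or 500 kb. Of windows as long as each gene with 5 kb on both sides, 0.265% (CEBPB) and 0.147% (CEBPD) held a broad region. With 500 kb on both sides, 9.66% of the CEBPD windows held a broad and 60.7% a narrow region. The difference between the genes was not tested, and there was 1 library per condition.

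**Figure D2:**
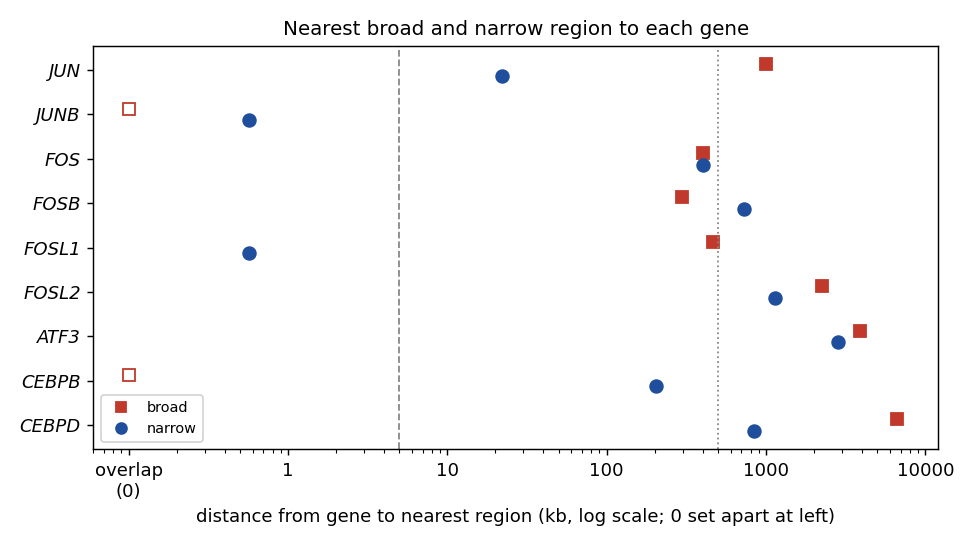
Distance in kb, on a log scale, from each of the 9 genes to the nearest broad region (red squares) and narrow region (blue circles), with open squares at the left for regions that overlap the gene. The dashed line is at 5 kb and the dotted line at 500 kb; JUNB, CEBPB and FOSL1 have a region left of 5 kb, and JUN is the only gene with its nearest region between 5 and 100 kb.

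Within 500 kb, 5 of the 9 genes had a broad region (JUNB, FOS, FOSB, FOSL1 and CEBPB), against 11.1% of windows of that reach on the same chromosomes. Taken for each gene on its own chromosome, this share ran from 8.05% (FOSL2) to 20.7% (FOSB), with 19.0% for JUNB. These windows too were laid without regard to genes. Narrow regions were within 500 kb of 5 genes (JUN, JUNB, FOS, FOSL1 and CEBPB), against 57.3% of windows, which is near the background. In all, 14 broad and 9 narrow regions lay in these neighbourhoods, and 8 of the 14 broad ones were at or near CEBPB.

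Beside the region in the gene, 7 broad regions lay 386.8 to 461.6 kb downstream of CEBPB. They spanned 75.3 kb of chromosome 20, from 49196064 to 49271370, and covered 4112 bp in sum. The 3 of them that were over 500 bp were 704, 644 and 764 bp wide. The widest, from 49252168 to 49252932, stood at place 27 of the broad list and was the only one with a narrow region, at place 23 of the narrow list. Joined where they lay within 5 kb of each other, the 7 became 4 stretches. With the region in CEBPB, they were 8 of the 15 broad regions on chromosome 20. The next coding gene downstream of CEBPB in the GRCh38 order is PTPN1, a tyrosine phosphatase, and which genes the 7 regions lie in was not analysed here. The wide regions near CEBPB were thus all outside the gene, whereas the region in the gene had the smallest width.

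A tighter group of broad regions lay 461.7 to 468.2 kb downstream of FOSL1, near the 500 kb limit. These 3 regions, each of 500 bp, lay in 7.0 kb of chromosome 11, from 65190856 to 65197841, at places 32 to 42 of the list. They were the only broad regions within 500 kb of FOSL1, and which genes they lie in was not analysed here. Another 3 narrow regions lay 354.6 kb upstream and 384.2 and 477.6 kb downstream, at places 274, 21 and 45.

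**Figure D3:**
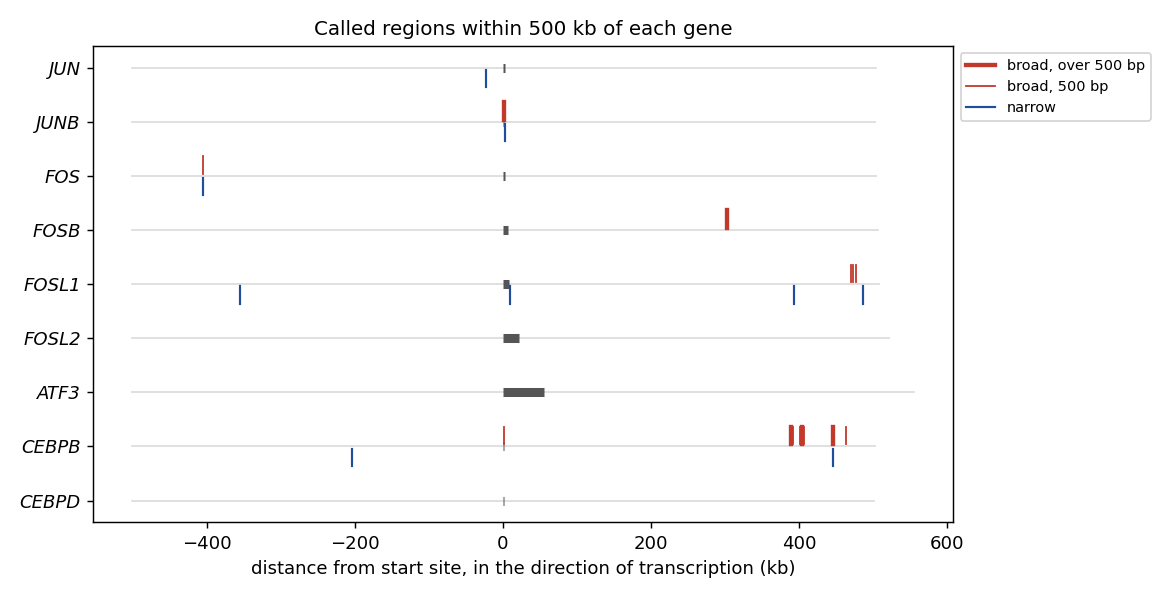
Called regions within 500 kb of each gene, in kb from the start site in the direction of transcription, with the gene as a dark bar, broad regions in red above the line (thick where over 500 bp) and narrow regions in blue below it. CEBPB has a group of 7 broad regions 386.8 to 461.6 kb downstream, FOSL1 a group of 3, and FOSL2, ATF3 and CEBPD have none.

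The promoters were also searched for motifs that these factors or the general machinery bind, over 250 bases before to 50 after each start site and on both strands. The 7 genes had 9 promoters, as ATF3 and CEBPB also had a promoter at an internal start site. A gene was counted if any of its promoters held a match, whereas the shares over all are per promoter, so the units differ. The AP-1 motif TGANTCA was in the window of 1 of the 7 genes, FOSL2, against 7.71% of 35116 promoters. The related motif TGACNTCA, which JUN and ATF family dimers bind, was in 2, JUN and ATF3, against 7.72%. In JUN it began 67 bases before the start site and has the letters of the site through which JUN is known to act on its own gene. The windows of 30 bases around these matches are shown because they hold the only matches to TGANTCA and TGACNTCA in the promoters searched, with the motif in capitals. Variants of these motifs and sites outside the promoter windows were not searched. The JUN sequence is the minus strand of chr1:58784096-58784125, the ATF3 sequence the plus strand of chr1:212565273-212565302 and the FOSL2 sequence the plus strand of chr2:28392850-28392879, all in GRCh38.
JUN: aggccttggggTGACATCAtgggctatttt
ATF3: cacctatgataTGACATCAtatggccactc
FOSL2: gtgccattgtagTGACTCAtctcgggcaga

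None of these 3 genes had a called region within 5 kb, which was also the case for 6 of the 9 genes as a whole. The JUNB window, with a region behind the gene, held neither motif. A link between motifs and regions was not tested. The C/EBP motif TTNNGNAA was in the windows of FOSB and ATF3 (36.8% of all promoters), the ATF3 matches being at its internal start site. The letters TATAAA were in those of 5 genes, JUNB, FOS, FOSB, ATF3 and CEBPB (11.5% of all). They began 31 bases before the start site of JUNB, 33 before that of FOS and 30 before that of FOSB. For CEBPB they began 29 bases before its internal start site. The ATF3 match lay much further off, 230 bases before its internal start site. CCAAT was in 4 (34.6%) and the GC box in 6, all but JUNB (45%). The share of G and C ranged from 46.3% at the internal start of ATF3 to 77% at CEBPB, against a median of 58.7% over all promoters, and JUNB had 71%. CEBPB and JUNB, the genes with a broad region, had the highest shares of the 7, but FOSL2, with no region within 500 kb, had 68.7%. The called regions lay outside these windows, and a link to the share of G and C was not tested. A match is a run of letters and not a shown binding site, and the sequences under the called regions themselves were not analysed here.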

How the data were processed

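The measurements were 2 deposited lists of ChIP-seq regions, called by the authors in senescent against growing cells (1 library each). Per the file headers, each row names a region and its chromosome, start and end, and the values are base positions, with no score and no normalization. Bowtie 0.12.9, HOMER 1.0 and hg19 are named in the submitters' processing notes, without roles. No source used here gives the calling settings, input control, duplicate handling or depth. Whether starts count from 0 or 1 is not stated, so a start could differ by 1 bp.

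Gene positions in hg19 came with the definition of the gene set. Distances ran edge to edge, and at least 1 bp within the window counted. Strands came from the promoter table, or general knowledge for FOSL1 and CEBPD. Background windows were laid between the first and last region of each chromosome. The gene table of GRCh38.p14 served only for gene order, and no coordinates were converted. The other family genes JUND, BATF2, ATF2, ATF7, MAFF, MAFG, MAFK, MAF, CEBPA, CEBPE, CEBPG, CEBPZ, DDIT3, ATF4 and ATF5 were not placed in hg19 and are not analysed here. All 9 genes are named. Others are named beside them only from the GRCh38 gene order, as the next coding gene, an overlapping gene or a family gene on that side. BATF, BATF3 and JDP2 come from that order and were not placed in hg19 either. On simulated data, 54 of 54 planted distances and 60 of 60 planted windows were recovered. The members and lists were chosen with earlier results of these data known, and the promoter motifs after the regions were seen. Computation used Python 3.11.15, pandas 2.3.3, numpy 2.4.6 and matplotlib 3.10.9.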

Additional observations from a re-analysis of the deposited data

How the results depend on the processing

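The counts of genes with a region were repeated with windows of 1, 10 and 50 kb, from the start site in place of the gene, with broad regions within 1 kb merged, and with only the first part of each list. Of 16 alternatives, 13 gave a count within 1.5 times the reported one. Several of these could not have moved. Both broad regions overlapped their genes, and the next gene, FOSB, had its nearest broad region 294.9 kb away. Windows of 1, 10 and 50 kb and the merging thus had to leave the broad counts as they were. With only the first 182 broad regions, 1 gene in place of 2 had a broad region within 5 kb, JUNB, as the region of CEBPB stands at place 347. From the start site, 1 gene in place of 2 had a narrow region within 5 kb, JUNB, because that of FOSL1 lies past the end of a longer gene. Within 100 kb in place of 500 kb, 2 genes in place of 5 had a broad region, JUNB and CEBPB. With 50 kb, JUN joined JUNB and FOSL1 among genes with a narrow region, which made 3. That count was at the limit of 1.5 times and was taken as within it. No paired analysis was possible because there was only 1 library per condition and no test was run between libraries. As depth is unknown, a gene without a region can have signal that missed the threshold of the authors.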
